A study of Mus musculus with 7 samples.

Results

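Nfe2l2, which encodes the transcription factor Nrf2, and 9 genes of antioxidant defence (Hmox1, Nqo1, Gclc, Gclm, Txnrd1, Srxn1, Slc7a11, Sod1 and Gpx1) were followed in messenger RNA of pancreatic islets from db/db mice. They were taken by symbol from a table of 51912 Ensembl genes. All 10 were found and all 10 passed the filter on low counts. One group had been given an adeno-associated virus (AAV) vector for adipsin (AAV-Adipsin, n = 3), and the control group an AAV vector for green fluorescent protein (AAV-GFP, n = 4). Both groups had the db/db genotype, which removes the signalling form of the leptin receptor and makes mice obese and diabetic, so there was no lean or untreated group. Islets were isolated 4 weeks after the vector and cultured for 12 hours before RNA was taken, and each mouse gave 1 library. The sources used here give neither the age, sex and strain background of the mice nor the promoter and serotype of the vector.

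In resting cells Nrf2 is bound by Keap1, handed to the Cul3 ubiquitin ligase and degraded. Oxidants or electrophiles modify Keap1, Nrf2 then accumulates, pairs with small Maf proteins and binds antioxidant response elements in front of genes that make glutathione, reduce thioredoxin, detoxify quinones and degrade heme. Hmox1, Nqo1, Gclc, Gclm, Txnrd1, Srxn1 and Slc7a11 are well-known Nrf2 targets. Sod1 and Gpx1 are antioxidant enzymes that are expressed widely and are less strictly tied to Nrf2. Rodent beta cells are known for low levels of some hydrogen peroxide-removing enzymes, catalase among them.

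Counts of the gene for adipsin checked the labels, without telling transcripts of the vector from those of the mouse gene. Cfd, which encodes adipsin, was counted 3965, 839 and 1481 times in AAV-Adipsin islets, against 1, 0, 0 and 0 times in AAV-GFP islets. It was the 1 gene of 16504 tested that passed in that comparison, at a log2 fold change of 12.4 (edgeR adjusted p = 0.0420). By limma-voom, or by edgeR without AAV-GFP replicate 1, 2, 3 or 4, 0 genes were called higher. An absence of calls by treatment therefore does not show that levels were equal. Total counts ran from 29601707 to 43997400 per library. The beta cell markers (Ins1, Ins2, Iapp and 7 others) were all detected in all 7 libraries and summed to between 164061 and 204307 CPM (counts relative to the library total, with TMM scaling factors). In the labels' description field, replicate 1 of each treatment bears a treatment name and the other 5 libraries bear a db number. These 2 treatment-named libraries stood apart from the 5 db-numbered ones in all 10 genes, and the 10 genes are therefore given both by treatment and by description. Within AAV-Adipsin, Cfd was also highest in the treatment-named library, at 103 CPM, beside 26.6 and 37.0 CPM in replicates 2 and 3. What else separates the treatment-named from the db-numbered libraries is not given in the sources used here.

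The antioxidant response element core TGACNNNGC was looked for on both strands of RefSeq promoter windows (build GRCm38.p6, 250 bases before to 50 bases after each annotated start). Windows were at hand for 8 members (none for Hmox1 and Gclc), and 5 of them held the core, beside 14.0% of all 27025 genes with a window (12.4% of all 32851 windows). The list was made up with well-known Nrf2 targets in it, so these shares are no independent result about the members. The matches are shown with 10 bases on each side, 5′ to 3′ along the strand of the gene, with the core in capitals. In all but Nfe2l2 the core reads on the opposite strand, so that the capitals show its reverse complement.
Nfe2l2, chr2:75704885-75704913, minus strand: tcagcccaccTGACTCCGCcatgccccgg
Gclm, chr3:122245413-122245441, plus strand: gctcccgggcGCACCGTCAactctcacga
Txnrd1, chr10:82859104-82859132, plus strand: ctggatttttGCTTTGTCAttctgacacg
Srxn1, chr2:152105542-152105570, plus strand: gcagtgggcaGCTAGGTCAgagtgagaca
Sod1, chr16:90220696-90220724, plus strand: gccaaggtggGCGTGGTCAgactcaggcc
In Srxn1 the core lies after the annotated start, within the transcribed part, and in the other 4 it lies before it. Txnrd1 has 3 annotated starts and the core is at 1 of them. The windows of Nqo1, Slc7a11 and Gpx1 did not hold these letters. A match of letters is a description of the sequence and was not tested for binding, nor for a part in the differences between libraries.

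The 10 transcripts covered a wide range of levels. Per kilobase of exon, Srxn1 stood highest at 88.9 ± 13.4 CPM per kb (SD, n = 7), followed by Gpx1 at 81.8 ± 25.8, Hmox1 at 78.1 ± 25.9, Txnrd1 at 71.4 ± 9.33 and Sod1 at 59.1 ± 6.75 CPM per kb. The ranges of neighbours among these 5 overlapped, so their order is not fixed. Gclm at 35.4 ± 6.69 CPM per kb lay below Sod1 with no overlap of the 7 libraries. Gclm and Gclc, at 34.0 ± 7.11, overlapped each other. Nfe2l2 followed at 23.2 ± 4.47 and Nqo1 at 10.5 ± 3.99 CPM per kb, each below its upper neighbour in 7 of 7 libraries although the ranges overlapped. Slc7a11 was lowest at 1.35 ± 0.337 CPM per kb and did not overlap with Nqo1. The exon length of Slc7a11, 13922 bases, is the longest of the 10 and sums all annotated transcripts, which lowers a level per kilobase where long forms are not used.

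**Figure D1:**
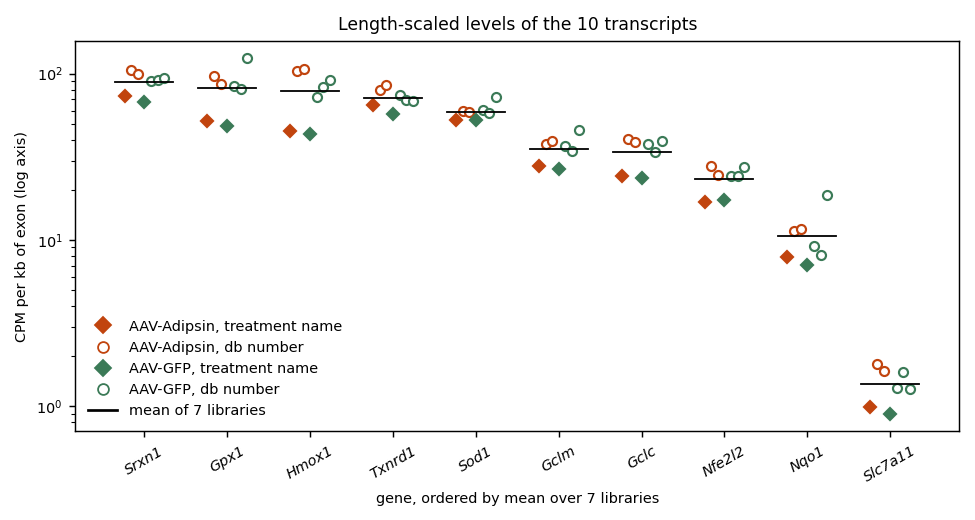
Levels per kilobase of exon of the 10 transcripts on a log axis, ordered by the mean over 7 libraries (black line); colours mark the treatment, filled diamonds the treatment-named and open circles the db-numbered libraries. Srxn1, Gpx1, Hmox1, Txnrd1 and Sod1 lie between 59.1 and 88.9 CPM per kb on average, and Slc7a11 lies far below at 1.35.

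No member passed between AAV-Adipsin and AAV-GFP. The comparison concerns systemic adipsin overexpression at a time when, per the series' design text, serum glucose was alike in both groups. Of the 10 members, 0 passed by edgeR's quasi-likelihood test with Benjamini-Hochberg adjustment over all genes (0.00606% of all genes passed), 0 had an unadjusted p under 0.05 (1.16% of all genes, 0.721% higher and 0.436% lower), and DESeq2 and limma-voom also called 0 (0.0243% of all genes by DESeq2 and 0% by limma-voom). Fitted log2 fold changes were above 0 for 5 members and below 0 for 5, with a median of 0.013 beside -0.011 over all genes tested. The groups overlapped in all 10, where they did not overlap in 2.74% of all genes.

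Nfe2l2 (chr2:75675513-75704641, minus strand, GRCm38) had 64.1, 106 and 93.0 CPM in the AAV-Adipsin libraries, against 65.7, 91.6, 92.3 and 105 CPM in the AAV-GFP libraries. The low value in each group was replicate 1, the treatment-named library, and the others overlapped. The log2 fold change was -0.012 (SE 0.20, edgeR adjusted p = 1.00), with a 95% interval of the fold from 0.728 to 1.35. Islet RNA is a mixture, so fewer cells of a type and less RNA per cell cannot be told apart for any of these genes.

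Genes of glutathione synthesis showed the same layout. Gclc (chr9:77754535-77794485, plus strand), the catalytic subunit of glutamate-cysteine ligase, had 91.5, 152 and 146 CPM in AAV-Adipsin and 89.2, 141, 128 and 148 CPM in AAV-GFP islets. Its log2 fold change was 0.038 (SE 0.22, edgeR adjusted p = 1.00). Gclm (chr3:122245557-122270732, plus strand), the modifier subunit that raises the affinity of the enzyme for its substrate, had 174, 238 and 246 CPM in AAV-Adipsin and 168, 231, 215 and 288 CPM in AAV-GFP islets. In both subunits the lowest library of each group was again replicate 1, and the other libraries of the groups overlapped. Exons of Gclm overlap those of the opposite-strand transcript Gm17494, which had 257 counts over all libraries beside 55380 for Gclm. The ratio of Gclm to Gclc per kilobase was 1.14, 0.940 and 1.01 in AAV-Adipsin and 1.12, 0.977, 1.01 and 1.17 in AAV-GFP islets. The mean log2 ratio differed by -0.057 (exact two-sided permutation p = 0.571, smallest possible 0.0571), a difference that was 0.0058 without AAV-Adipsin replicate 2. Slc7a11 (chr3:49892526-50443614, minus strand), the light chain of the antiporter that imports cystine for glutathione, had 13.7, 24.9 and 22.6 CPM in AAV-Adipsin and 12.5, 18.0, 22.4 and 17.7 CPM in AAV-GFP islets. Its log2 fold change was 0.21 (SE 0.24, edgeR adjusted p = 1.00).

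The thioredoxin branch did not pass either. Txnrd1 (chr10:82833951-82897712, plus strand), the cytosolic selenoenzyme that reduces thioredoxin, had 462, 564 and 606 CPM in AAV-Adipsin, against 407, 525, 492 and 484 CPM in AAV-GFP islets. AAV-Adipsin replicates 2 and 3 lay above all 4 AAV-GFP libraries, and replicate 1 lay within their range. The log2 fold change of 0.19 (SE 0.12, edgeR adjusted p = 1.00) carried the smallest p among the 10 members, 0.158 before adjustment, and an exact permutation p of 0.229. Srxn1 (chr2:152105516-152111376, plus strand), sulfiredoxin, repairs overoxidised peroxiredoxins. It had 207, 295 and 282 CPM in AAV-Adipsin and 192, 256, 259 and 264 CPM in AAV-GFP islets, at a log2 fold change of 0.11 (SE 0.15).

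Hmox1 (chr8:75093621-75100589, plus strand), heme oxygenase 1, which opens the heme ring and frees iron, had 79.4, 183 and 187 CPM in AAV-Adipsin islets. The AAV-GFP islets had 75.9, 127, 145 and 160.0 CPM. Replicate 1 was lowest in both groups, and AAV-Adipsin replicates 2 and 3 lay above every AAV-GFP library. At 0.24 (SE 0.35, edgeR adjusted p = 1.00) this was the largest fitted log2 fold change of the 10, and the interval of the fold ran from 0.673 to 2.07. Hmox1 is abundant in macrophages. The 14 macrophage markers summed to 163, 352 and 181 CPM in AAV-Adipsin and 148, 170, 156 and 216 CPM in AAV-GFP islets. Only AAV-Adipsin replicate 2 lay above the range of the AAV-GFP libraries. Fitted log2 fold changes were above 0 for 13 of the 13 markers tested, and none passed. Their part in the Hmox1 values was not tested.

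The remaining enzymes did not separate the treatments either. Nqo1 (chr8:107388225-107403206, minus strand), a quinone reductase, had 12.2, 17.5 and 17.9 CPM in AAV-Adipsin and 10.9, 14.3, 12.6 and 29.0 CPM in AAV-GFP islets. The high value of AAV-GFP replicate 4 set its spread, and the fitted log2 fold change was -0.072 (SE 0.34) with all libraries and 0.33 without that library. Sod1 (chr16:90220754-90226329, plus strand), the cytosolic copper-zinc superoxide dismutase, had 209.8, 235 and 235 CPM in AAV-Adipsin and 208, 239, 229 and 289 CPM in AAV-GFP islets. It varied least among the 10, with a coefficient of variation of 11.4% over the 7 libraries. Gpx1 (chr9:108338903-108340343, plus strand), a selenium-containing glutathione peroxidase, had 75.3, 139.9 and 125 CPM in AAV-Adipsin and 69.3, 121, 117 and 178 CPM in AAV-GFP islets, at a log2 fold change of -0.096 (SE 0.32).

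**Figure D2:**
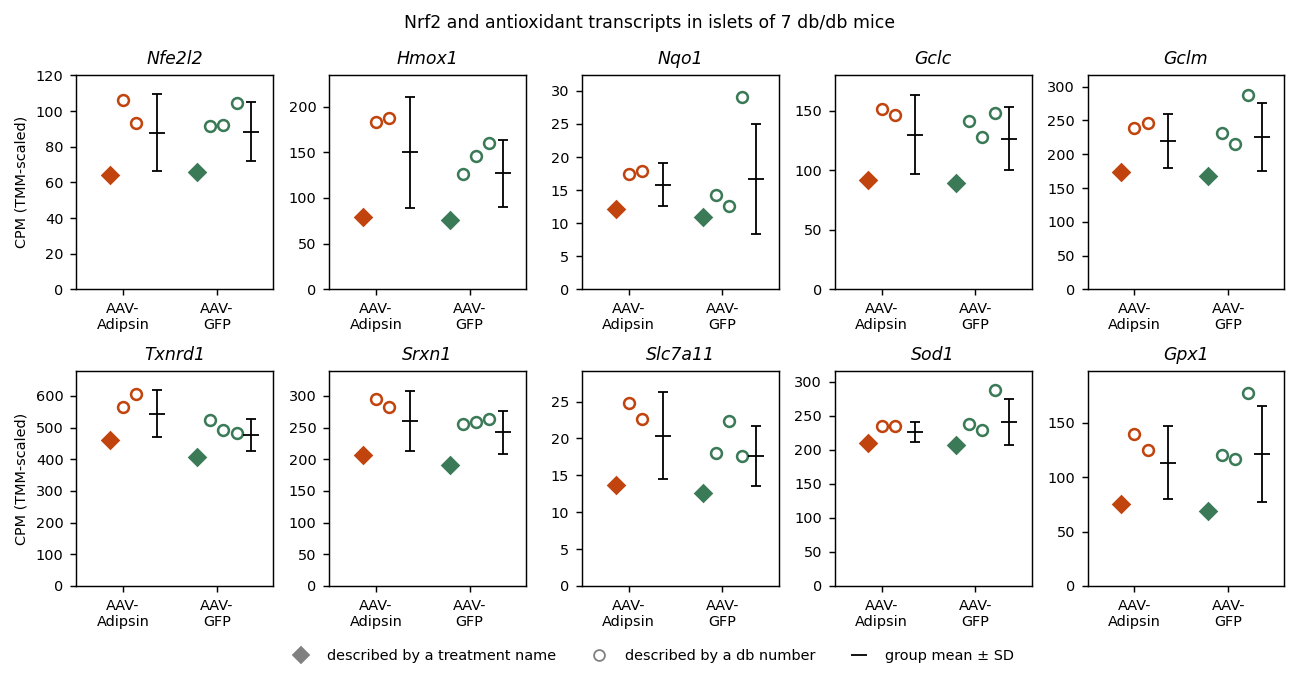
CPM of the 10 transcripts in each library of AAV-Adipsin (left) and AAV-GFP (right) islets; filled diamonds are the treatment-named and open circles the db-numbered libraries, and the bars give the group mean and SD. In each panel the treatment groups overlap, and both diamonds lie below all circles.

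The treatment-named libraries had lower values than the db-numbered libraries for all 10 members, in both treatments. In a model with treatment as a term, 8 of the 10 fell by edgeR's quasi-likelihood test with Benjamini-Hochberg adjustment over all genes, where 5.57% of all genes fell and 4.22% rose (9.79% passed in either direction). The median log2 fold change of the 10 members was -0.62, beside -0.0055 over all genes tested. The 2 treatment-named libraries did not overlap with the 5 db-numbered ones in any of the 10, all on the lower side, where 18.9% of all genes were apart in that direction and 37.6% in either. Unadjusted p was under 0.05 for the same number of members, 8, and for 28.2% of all genes. Since the members were chosen with earlier results of these data known, no test was made of the list as a whole. The comparison by description is given because the members stood apart in it. Its p values come from the same values, so they describe the difference and are no independent test of it.

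Hmox1 differed most. It averaged 77.6 ± 2.52 CPM in treatment-named libraries (SD, n = 2) and 160.4 ± 25.4 CPM in db-numbered libraries (SD, n = 5). This is a log2 fold change of -1.06 (SE 0.11, edgeR adjusted p = 0.00326), or a fold of 0.480 with a 95% interval from 0.400 to 0.575. Gpx1 followed, with 72.3 ± 4.18 CPM in treatment-named and 136 ± 24.9 CPM in db-numbered libraries and a log2 fold change of -0.91 (SE 0.17, adjusted p = 0.0230 by edgeR).

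The regulator fell with the genes of glutathione synthesis. Nfe2l2 averaged 64.9 ± 1.16 CPM in treatment-named and 97.5 ± 7.18 CPM in db-numbered libraries, a log2 fold change of -0.59 (SE 0.088, edgeR adjusted p = 0.0109). Slc7a11 stood at 13.1 ± 0.792 CPM in treatment-named and 21.1 ± 3.14 CPM in db-numbered libraries, at -0.71 (SE 0.12, adjusted p = 0.0156 by edgeR). Gclc was at -0.67 (SE 0.077, edgeR adjusted p = 0.00452) and Gclm at -0.51 (SE 0.12, edgeR adjusted p = 0.0353). Both subunits of the ligase were thus lower in the same libraries, and the Gclm to Gclc ratio overlapped between the descriptions. Srxn1 and Txnrd1 fell less, with log2 fold changes of -0.46 (SE 0.063, edgeR adjusted p = 0.00850) and -0.32 (SE 0.071, edgeR adjusted p = 0.0342). The call of Txnrd1 held under 5 of 14 alternatives. It was lost with scaling by library totals only (adjusted p = 0.0522 by edgeR), with no filter on low counts (adjusted p = 0.0775 by edgeR), with no treatment term (adjusted p = 0.0934 by edgeR) and without any 1 library other than AAV-GFP replicate 4.

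Nqo1 and Sod1 did not pass. Nqo1 averaged 11.5 ± 0.911 CPM in treatment-named and 18.3 ± 6.41 CPM in db-numbered libraries, where AAV-GFP replicate 4 alone reached 29.0. Its log2 fold change was -0.66 with a wide SE of 0.32 (edgeR adjusted p = 0.229). Sod1 was at -0.22 (SE 0.10, edgeR adjusted p = 0.194), with 209 ± 1.36 CPM in treatment-named and 245 ± 24.6 CPM in db-numbered libraries. Whether Sod1 fell less than the Nrf2 targets was not tested.

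The difference had the same sign in both treatments for all 10 members. For Hmox1 the log2 CPM of the treatment-named library less the mean of the db-numbered ones was -1.22 in AAV-Adipsin and -0.92 in AAV-GFP islets. For Nfe2l2 it was -0.63 in AAV-Adipsin and -0.54 in AAV-GFP islets, and for Gpx1 -0.81 in AAV-Adipsin and -0.97 in AAV-GFP islets. An interaction of description and treatment was called for 0 of 10 members and 0 of 16504 genes by edgeR (unadjusted p under 0.05 for 135 genes and for none of the members). With 1 library in 2 of the 4 combinations the intervals of this interaction are wide, from -0.80 to 0.20 on the log2 scale for Hmox1.

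Each call by description rests on 2 libraries. Without AAV-Adipsin replicate 1 or AAV-GFP replicate 1, the lone treatment-named library being taken to vary like the rest, 0 of 10 members passed by edgeR, while the fitted log2 fold changes of Hmox1 were -0.92 and -1.22 and those of Nfe2l2 -0.55 and -0.64. Without AAV-Adipsin replicate 2 or 3 the number passing was 4 each, and without AAV-GFP replicates 2, 3 and 4 it was 6, 7 and 10.

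**Figure D3:**
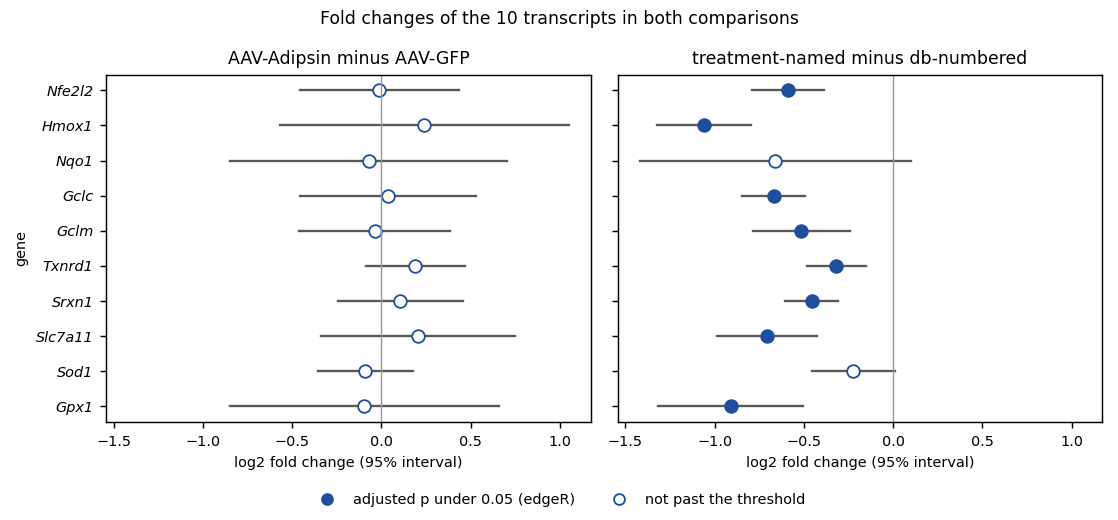
Log2 fold changes of the 10 transcripts with 95% intervals from edgeR, for AAV-Adipsin minus AAV-GFP (left) and treatment-named minus db-numbered libraries (right); filled points passed after adjustment over all genes. On the left all 10 intervals include 0, and on the right all 10 estimates are negative and 8 passed.

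With the description of the libraries as a term, the treatment estimates became more precise and still none passed. The description was taken up because the members stood apart by it, so a smaller remaining spread of the members follows from that choice. It was not chosen in this way for all genes. The p values below and the shares beside them are therefore a description and no independent test of treatment. Unadjusted p was under 0.05 for 3 of 10 members, all higher in AAV-Adipsin, where 1.51% of all genes had this in that direction and 2.78% in either. They were Txnrd1 at a log2 fold change of 0.21 (95% interval 0.064 to 0.36, edgeR adjusted p = 0.999), Hmox1 at 0.28 (0.051 to 0.50) and Srxn1 at 0.14 (0.0090 to 0.27), each with the same adjusted p. The model with the term narrowed the interval for Nfe2l2 to -0.16 to 0.21 and that for Gclc to -0.075 to 0.24. Within the treatment-named libraries the log2 CPM in AAV-Adipsin less that in AAV-GFP was 0.18 for Txnrd1, 0.066 for Hmox1 and 0.11 for Srxn1, and within the db-numbered libraries it was 0.22, 0.37 and 0.15 for the same genes in that order.

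Levels of the members were set beside 137 further genes of the antioxidant system in 10 lists, of which 134 were tested. By description of the libraries 15 of these fell and 2 rose, that is 11.2% lower where 5.57% of all genes were lower, and 95 of 134 fitted values were below 0. In either direction DESeq2 called 26 of 133 (19.5%, beside 16.3% of all genes) and limma-voom 18 of 134 (13.4%, beside 11.2% of all genes), pooled shares near those of all genes. The lists differed from each other. Some genes stand in several of them, so the same call can count in several shares. DESeq2 called 13 of 31 other Nrf2 targets (41.9%) and 6 of 11 enzymes that supply NADPH (54.5%). From the same lists limma-voom called 8 (25.8%) and 5 (45.5%). In the remaining lists the share ran from 0% to 25% by either tool. By treatment 0 passed by edgeR, DESeq2 or limma-voom, and 1 had an unadjusted p under 0.05 in edgeR (1.16% of all genes).

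Among regulators and partners of Nrf2, 2 of 13 fell and 1 rose in the treatment-named libraries by edgeR. Of all genes 5.57% fell and 4.22% rose. Sqstm1, the autophagy adaptor p62 that can sequester Keap1, averaged 1055 ± 6.28 CPM in treatment-named and 1421 ± 115 CPM in db-numbered libraries, at a log2 fold change of -0.42 (SE 0.090, edgeR adjusted p = 0.0306). Cul3, the scaffold of the ligase that marks Nrf2, fell at -0.36 (SE 0.080, edgeR adjusted p = 0.0331), and Btrc, the substrate receptor of another ligase that can target Nrf2, rose at 0.31 (SE 0.068, edgeR adjusted p = 0.0328). Keap1 itself had 86.2 ± 2.66 CPM in treatment-named and 84.8 ± 3.57 CPM in db-numbered libraries, a log2 fold change of 0.015 (SE 0.059).

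Of 31 other Nrf2 targets tested, 7 fell and 0 rose in the treatment-named libraries by edgeR, where 5.57% of all genes fell and 4.22% rose. Fitted values were below 0 for 25 of the 31, and the list median was -0.33. The drug and glutathione conjugate exporters Abcc4 and Abcc1 stood at -0.58 (SE 0.071, edgeR adjusted p = 0.00556) and -0.45 (SE 0.062, edgeR adjusted p = 0.00877). Me1, malic enzyme, was at -0.81 (SE 0.12), with 51.4 ± 3.18 CPM in treatment-named and 89.9 ± 10.4 CPM in db-numbered libraries.

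Enzymes that supply NADPH, the reductant for glutathione and thioredoxin reductases, had 4 of 11 lower and 1 higher by edgeR. Among all genes these shares were 5.57% and 4.22%. Pgd of the pentose phosphate pathway was at -0.87 (SE 0.14, edgeR adjusted p = 0.0126) and cytosolic Idh1 at -0.47 (SE 0.074, edgeR adjusted p = 0.0126). H6pd was lower at -0.45, and mitochondrial Idh2, named here after its values were seen, was higher at 0.35 (SE 0.082, edgeR adjusted p = 0.0410). Nnt, the mitochondrial transhydrogenase, stood at only 0.130 to 0.650 CPM in any library.

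The other antioxidant enzymes gave single calls. Among all genes 5.57% fell and 9.79% passed in either direction by edgeR, and 28.2% had an unadjusted p under 0.05. DESeq2 called 16.3% of all genes and limma-voom 11.2%. In the glutathione list 2 of 19 fell, Gpx2, a selenium-containing peroxidase, at -0.48 (SE 0.075) and Glrx3, a glutaredoxin, at -0.32 (SE 0.066), while Gsr, which regenerates glutathione, at -0.45 (SE 0.13, edgeR adjusted p = 0.0645), did not pass. Of the other superoxide dismutases and catalase, 1 of 4 fell, the mitochondrial Sod2 at -0.59 (SE 0.15, edgeR adjusted p = 0.0475). Catalase had 21.7 ± 0.353 CPM in treatment-named and 26.5 ± 3.02 CPM in db-numbered libraries and did not pass. None of 18 thioredoxin and peroxiredoxin genes passed by edgeR, where Prdx1 was at -0.52 (adjusted p = 0.0521) and 3 had an unadjusted p under 0.05. DESeq2 and limma-voom each called 1 of them, Prdx1. In the heme and iron list 1 of 15 fell, the iron transporter Slc11a2, with 32.0 ± 1.90 CPM in treatment-named and 70.2 ± 2.75 CPM in db-numbered libraries, at -1.13 (SE 0.076, edgeR adjusted p = 4.1e-04). No gene passed by edgeR among 15 of selenoprotein synthesis (3 with an unadjusted p under 0.05), 8 superoxide sources (1) and 14 of Atf4 and its targets (1). DESeq2 called 2, 0 and 1 genes of these lists, and limma-voom called 0 in each.

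**Figure D4:**
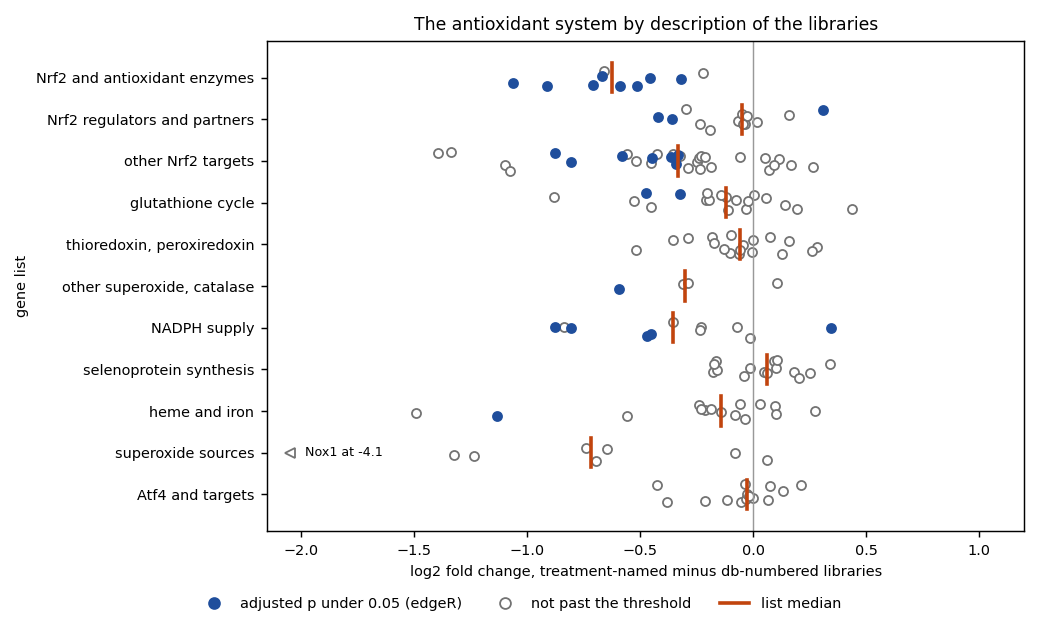
Log2 fold change of treatment-named minus db-numbered libraries for each tested gene of 11 lists, with the list median as a red bar; filled points passed edgeR after adjustment over all genes. The 10 Nrf2 and antioxidant genes have a median of -0.62 and 8 filled points, other Nrf2 targets a median of -0.33 and 7, and the regulators a median of -0.048 with 3.

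By treatment, 2 genes of these lists showed no overlap between groups, where this held for 2.74% of all genes (1.16% higher and 1.58% lower). Keap1 had 88.1, 86.7 and 90.0 CPM in AAV-Adipsin and 84.4, 82.4, 84.0 and 81.0 CPM in AAV-GFP islets, a log2 fold change of 0.090 (SE 0.067, edgeR adjusted p = 1.00). Gpx3, the secreted glutathione peroxidase, had 507, 591 and 639 CPM in AAV-Adipsin and 648, 762, 723 and 671 CPM in AAV-GFP islets, at -0.28 (SE 0.11, edgeR adjusted p = 1.00). Its highest AAV-Adipsin value lay just below its lowest AAV-GFP value.

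Other features moved with the description of the libraries too. Of the 10 beta cell markers 4 were higher in treatment-named libraries by edgeR, where 4.22% of all genes were higher. Named after their values were seen, they were Ucn3 at a log2 fold change of 0.89, Slc2a2 at 0.85, Slc30a8 at 0.64 and Iapp at 0.40. Fitted values of 3 of the 10 were below 0, 1 of them at an unadjusted p under 0.05 in edgeR, and 0 fell after adjustment. Among all genes 5.57% fell and 28.2% had an unadjusted p under 0.05 in edgeR, and DESeq2 called 16.3%. The summed beta cell markers overlapped at 192501 to 204307 CPM in treatment-named and 164061 to 203094 CPM in db-numbered libraries. The 7 alpha cell markers summed to 9906 to 9940 CPM in treatment-named and 7011 to 9485 CPM in db-numbered libraries. Singly, 4 of them had fitted values above 0 and 3 below 0, and 0 passed by edgeR. Of 13 macrophage markers tested 12 were below 0 and 1, Msr1, named after its value was seen, fell (-1.22, edgeR adjusted p = 0.0330), and their sum of 148 to 163 CPM in treatment-named overlapped with 156 to 352 CPM in db-numbered libraries, with 13 or 14 of the 14 markers counted in each library. Of 7 duct markers 6 were below 0, with a median of -0.78 and 3 at an unadjusted p under 0.05, and their sums were 1288 and 1317 CPM in treatment-named and 1289 to 1870 CPM in db-numbered libraries. Below 0 were also 12 of 13 acinar markers (median -1.23), 10 of 12 mesenchymal markers (median -0.44) and 4 of 4 delta cell markers (median -0.27), while no duct, acinar, mesenchymal or delta marker passed by edgeR or limma-voom. DESeq2 called 1 duct marker and none of the acinar, mesenchymal or delta markers, and of these 3 lists 1 mesenchymal marker had an unadjusted p under 0.05 in edgeR. The sums of acinar, mesenchymal, delta, endothelial and adipocyte markers overlapped between the descriptions, with the adipocyte marker Lep at 0 counts in every library. Mitochondrially encoded transcripts made up 1.13% and 1.22% of counts in the treatment-named libraries and 1.45% to 2.67% in the db-numbered ones. Genes with at least 1 count numbered 23787 and 24460 in the treatment-named and 21840 to 23536 in the db-numbered libraries. The part of these differences in the values of the 10 members was not tested.

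The profile of each member over the 7 libraries was compared with 12620 genes of at least 1 in mean log2 CPM, by the root mean square difference of centred log2 CPM. The gene nearest to Srxn1 was Abcc1, at 0.023, beside a spread of Srxn1 itself of 0.21. The gene nearest to Gpx1 was Pgd (0.072, own spread 0.45), to Hmox1 Sulf2 (0.073, own spread 0.50), to Nfe2l2 Traf3ip2 (0.040, own spread 0.28) and to Gclc Ralgds (0.054, own spread 0.31). For Gclm, Txnrd1, Slc7a11, Sod1 and Nqo1 the nearest genes were Sap30, Tcp11l1, Arhgap8, Ninj1 and Id3. Among the members, Nfe2l2 and Gclc were nearest to each other at 0.074, which placed Nfe2l2 12th among all genes for Gclc and Gclc 41st for Nfe2l2. For Hmox1, Nqo1, Gclm, Txnrd1, Srxn1, Slc7a11 and Gpx1 the nearest member came lower, from 72nd (Slc7a11) to 262nd (Srxn1). For Sod1 the nearest member, Gclm, came 2537th among all genes, at 0.135, beside own spreads of 0.145 for Sod1 and 0.258 for Gclm. The measure counts the size of a change as well as its shape. This rank therefore does not show that Sod1 had a pattern of its own.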

How the data were processed

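Islet mRNA was sequenced from 7 db/db mice (3 AAV-Adipsin, 4 AAV-GFP), 1 library per mouse, with a stranded kit per the labels' protocols. The authors deposited whole-number read counts per Ensembl gene that were not normalised. STAR and the build mm10 (GRCm38) are listed in the submitters' processing notes. How reads were counted, with which annotation and whether by strand, is not stated there, so overlapping genes on opposite strands may share reads. All 7 columns were used. Of 51912 identifiers, 51719 were matched to GENCODE release M21 for symbols, coordinates and exon length.

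Genes were filtered with filterByExpr, scaled by TMM and tested in edgeR 4.0.16 (R 4.3.3) by robust quasi-likelihood, for treatment, for description of the library (treatment name or db number) with treatment as a term, and for their interaction. P values were adjusted over 16504 genes at a threshold of 0.05. SE came from the F statistic. Log2 CPM carried a prior count of 2. DESeq2 1.42.0, limma-voom (limma 3.58.1), other scaling and filters, and removal of libraries were alternatives. Exact permutation tests used the 35 divisions into 3 and 4 libraries. The scripts were tested on simulated data. The members and gene lists were chosen with earlier results of these data known. Named were the members, genes past the threshold by treatment, the 3 list genes with the smallest p per comparison, and the gene with the nearest profile. Promoter windows are from RefSeq (GRCm38.p6). With 441 counts or more for every member in every library, counting error is small beside the spread between mice.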

Additional observations from a re-analysis of the deposited data

Results flagged for a closer look

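Srxn1 in AAV-GFP replicate 1, at 192 CPM, lay far below the other 3 AAV-GFP libraries at 256, 259 and 264 CPM. The gap to its nearest neighbour took 0.884 of the range of the group. This library is the treatment-named one of its group, and AAV-Adipsin replicate 1, the other treatment-named library, was likewise the lowest of its group at 207 CPM. Among 11 groups of 4 libraries examined in this way (10 members and the Gclm to Gclc ratio), this was the 1 that stood out. Chance flags about 1 in 20 single groups, so 1 flag among 11 groups can readily arise by chance.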

How the results depend on the processing

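For AAV-Adipsin against AAV-GFP, 0 members passed under all 16 alternatives. Genes called higher numbered 1 with all libraries, 0 without a filter on low counts, with limma-voom and without both treatment-named libraries, 3 with DESeq2 (1 lower), and 0 to 1 without single libraries. With the replicate number as a block, edgeR called 1 gene higher, 0 lower and 0 members. The labels do not say whether the numbers pair the mice. Deviations of same-numbered libraries correlated at 0.66, -0.011 and 0.0071 across genes for replicates 1, 2 and 3, which cannot settle it. The fitted sign of uncalled members turned in places. Nfe2l2 was at 0.020 with library totals only, 0.026 with description as a term, 0.063 with the replicate block and 0.064 without both treatment-named libraries, and ran from -0.16 to 0.17 without single libraries. Nqo1 was at 0.060 with limma-voom and 0.32 with the block (-0.22 to 0.33 without single libraries), Gclm at 0.0056 with description as a term and 0.098 with the block (-0.14 to 0.10), Sod1 at 0.0087 with the block (-0.14 to 0.0094) and Gpx1 at 0.14 with the block (-0.28 to 0.15). Gclc ran from -0.085 to 0.24 and the log2 Gclm to Gclc ratio from -0.13 to 0.0058 without single libraries. For treatment-named against db-numbered libraries, no member changed sign under 14 alternatives. DESeq2 called 1099 genes higher and 1429 lower, against 696 and 920 by edgeR, and the same number of members, 8. With library totals only edgeR called more genes higher (820) than lower (759), and 7 members. Without single libraries the genes called ran from 0 to 1972 higher and from 39 to 2376 lower, and the members called from 0 to 10. No replicate block could be fitted there, because replicate 1 is the treatment-named library in both groups. The cause of these shifts was not tested.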
